A study of Mus musculus with 8 samples.

Results

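The 10 genes described here are AP-1 subunits and immediate early factors, namely Fos, Fosb, Fosl2, Jun, Junb, Jund, Atf3, Egr1, Ier2 and Dusp1. They were chosen by name, and each was read from the probe set that carried its symbol alone, taking the one with the highest mean over 8 arrays where there were several. All 10 were found among the 22180 genes with a probe set of their own, and all 10 passed the level filter that left 13112 genes for testing. The samples were club cells, which secrete the protective fluid of the small airways, taken from the lungs of untreated Atgl KO/cTg mice and wt/cTg mice on standard chow, aged 38 to 48 weeks. There were 4 pools of 4 mice each for Atgl KO/cTg and 4 pools of 3 or 4 mice each for wt/cTg, 16 and 14 mice in all, with 1 array per pool. The files list Atgl as Pnpla2, the gene of the lipase that starts the breakdown of stored triglycerides. Both genotypes carry cTg, which the labels do not expand, and the labels do not give the cells in which Atgl was deleted. The comparison asks whether these genes differ in club cells without Atgl, and how far the pools differ in a set of genes that cell isolation is known to induce.

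AP-1 is a family of dimeric transcription factors in which a Fos protein pairs with a Jun protein through a leucine zipper, or Jun proteins pair among themselves. Immediate early genes are switched on by growth factors, stress and mechanical or enzymatic handling without the need for new protein synthesis, and most of their transcripts are short-lived. Enzymatic dissociation of solid tissue, lung included, is a known inducer of these genes, so they are often read as a mark of handling. No array of cells lysed without isolation was analysed here, so the values show differences between pools and not how much isolation raised a gene in every pool.

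Signalling kinases switch these genes on through factors bound at their promoters, so the promoter stretches that hold known binding letters are shown first. RefSeq promoters on GRCm38.p6 matched 8 of the 10 members, all but Egr1 and Ier2. The 250 bases before the start were searched on both strands for 5 motifs. TGACG is the core that CREB and ATF proteins read. TGACNTCA covers their full site, TGACGTCA, which holds that core, and also variants without it, such as TGACATCA in Jun. TGANTCA is the shorter AP-1 site, and other letters that AP-1 dimers may read were not searched for as such. GCGNGGGCG is read by the EGR family. The CArG box is read by serum response factor. Each stretch runs from 20 bases before the first match to at most 20 after the last, and capitals mark the matches, which in Atf3 is TGACG read on the other strand.
Fos, chr12:85473741-85473848, plus strand: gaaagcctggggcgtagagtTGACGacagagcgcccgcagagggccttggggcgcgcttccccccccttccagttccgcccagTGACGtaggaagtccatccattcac
Fosb, chr7:19310067-19310125, minus strand: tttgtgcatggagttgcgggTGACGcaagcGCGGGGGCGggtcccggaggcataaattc
Fosl2, chr5:32136373-32136421, plus strand: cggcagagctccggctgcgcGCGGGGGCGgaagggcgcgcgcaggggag
Jun, chr4:95052240-95052287, minus strand: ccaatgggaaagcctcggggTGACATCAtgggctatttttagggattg
Junb, chr8:84978830-84978874, minus strand: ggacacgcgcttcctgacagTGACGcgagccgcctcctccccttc
Atf3, chr1:191183334-191183360, minus strand: ggaagctattaatagcattaCGTCAgc
Dusp1, chr17:26508588-26508683, minus strand: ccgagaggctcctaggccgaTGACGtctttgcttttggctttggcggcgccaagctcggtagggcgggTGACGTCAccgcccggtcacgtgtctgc

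TGACG was present in 5 of the 8 member promoters (Fos, Fosb, Junb, Atf3 and Dusp1) and in 17.8% of all 32851 promoter windows of the same length. TGACNTCA was present in Jun and Dusp1 and in 7.49% of all windows, and GCGNGGGCG in Fosb and Fosl2 and in 4.7% of all windows. Neither TGANTCA nor the CArG box matched any of the 8, against 6.75% and 1.47% of all windows. Sites farther upstream than 250 bases, or in Egr1 or Ier2, lay outside this search. A match is a description of letters and was not set against the expression values.

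None of the 10 members passed limma's test between the genotypes, and their differences were small. The deleted gene Pnpla2 read 6.99, 7.16, 7.09 and 6.70 log2 units in Atgl KO/cTg pools, against 8.70, 8.63, 8.62 and 8.86 in wt/cTg pools, so the genotype labels held in every pool. Over all genes, 0.0991% passed at a Benjamini-Hochberg adjusted p under 0.05 (0.0153% higher and 0.0839% lower in Atgl KO/cTg), and 7.95% had an unadjusted p under 0.05. Of the members, 0 passed and 1 (Fosb) had an unadjusted p under 0.05. No member had groups that did not overlap, against 4.35% of all genes tested (1.74% with Atgl KO/cTg higher and 2.62% with it lower). The log2 differences (Atgl KO/cTg minus wt/cTg) lay above 0 for 8 members and below 0 for 2, with a median of 0.07 and a range of -0.11 to 0.26, beside a median of -0.01 over all genes tested. Of all genes tested, 47.8% lay above 0, which is also the reference for such counts in the lists below. After quantile normalization and after median centring 8 members again lay above 0. Without Atgl KO/cTg replicate 1, 5 members lay above 0 and the median was 0.00817. In such bulk samples a lower signal from fewer cells of a type cannot be told apart from less RNA per cell.

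**Figure D1:**
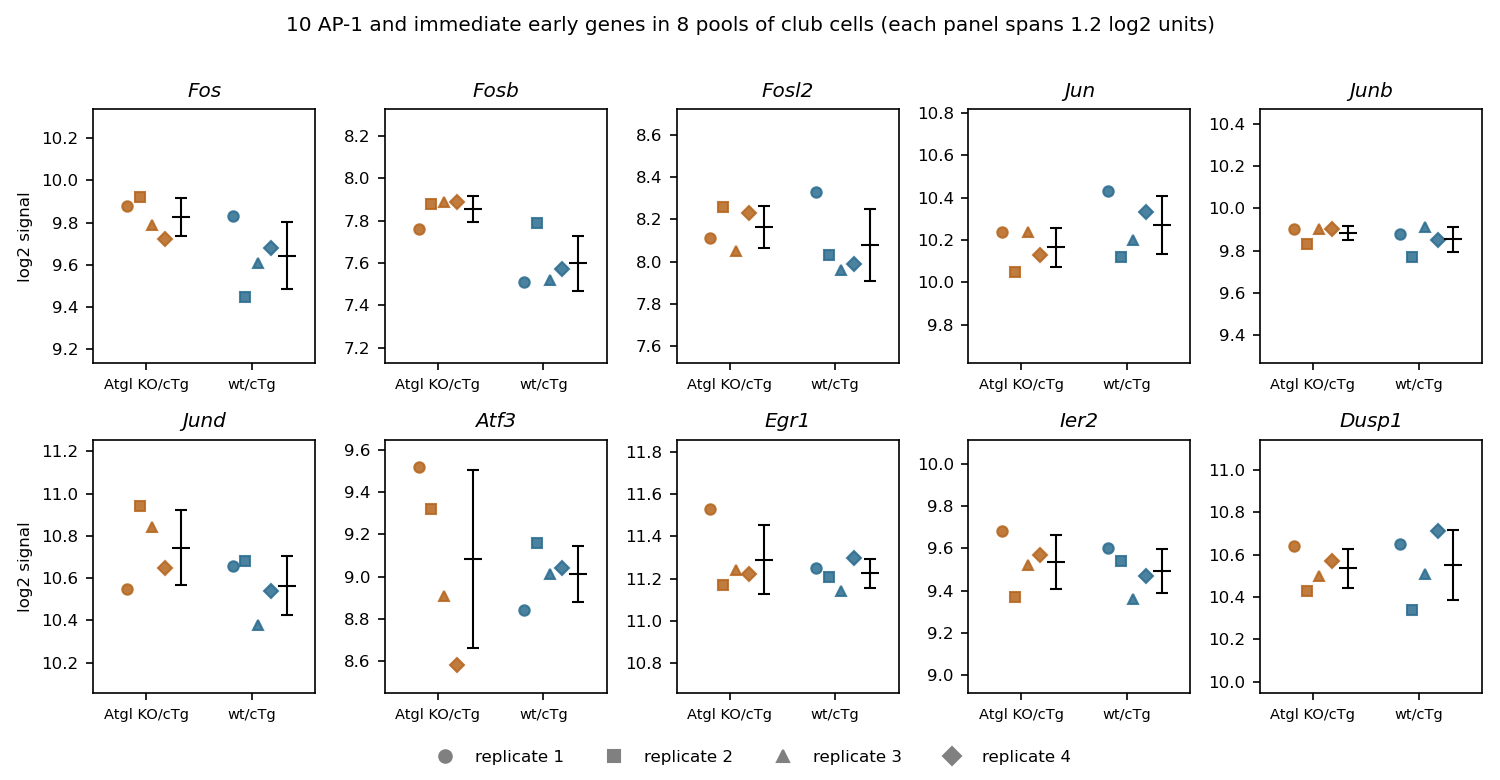
Log2 signal (vertical axes, each spanning the same range of log2 units) of the 10 members in 4 Atgl KO/cTg pools (left, brown) and 4 wt/cTg pools (right, blue), with marker shape giving the replicate number, which pairs nothing, and black bars giving mean and SD. The groups overlap in every panel, and Atf3 in Atgl KO/cTg has the widest spread, 8.58 to 9.52.

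Fos, Fosb and Fosl2 are the Fos-family members, which cannot pair with each other and need a Jun partner. Fosb had the largest difference of the 10. It read 7.76, 7.88, 7.89 and 7.89 log2 units in Atgl KO/cTg pools, against 7.51, 7.79, 7.52 and 7.57 in wt/cTg pools. A single wt/cTg pool, replicate 2, reached above the lowest Atgl KO/cTg pool. The log2 difference was 0.26 (SE 0.09, 95% interval 0.05 to 0.46), with an unadjusted p of 0.0174, a limma adjusted p of 0.524 and an exact two-sided permutation p of 0.0571, where 0.0286 is the smallest possible. After quantile normalization, an alternative chosen here after seeing the data, the Fosb groups no longer overlapped (exact permutation p = 0.0286). After median centring the exact permutation p was again 0.0571.

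Fos, the founding member and the transcript most used as a mark of recent stimulation, read 9.88, 9.92, 9.79 and 9.72 log2 units in Atgl KO/cTg pools, against 9.83, 9.45, 9.61 and 9.68 in wt/cTg pools. The highest wt/cTg pool, replicate 1, lay among the Atgl KO/cTg values, and the other 3 lay below them. The log2 difference was 0.19 (SE 0.09, 95% interval -0.01 to 0.38, limma adjusted p = 0.645), which corresponds to 1.14 times the wt/cTg signal with an interval of 0.993 to 1.30. Fosl2, which encodes Fra-2, a Fos protein with a more lasting expression after stimulation, read 8.11, 8.26, 8.05 and 8.23 log2 units in Atgl KO/cTg pools, against 8.33, 8.03, 7.96 and 7.99 in wt/cTg pools. Its highest value was in wt/cTg replicate 1 and its difference was 0.08 (SE 0.10, limma adjusted p = 0.884).

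The Jun-family members, which can pair with Fos proteins or with each other, did not move one way. Jun read 10.24, 10.05, 10.24 and 10.13 log2 units in Atgl KO/cTg pools, against 10.43, 10.12, 10.20 and 10.33 in wt/cTg pools. Its log2 difference was -0.11 (SE 0.08, 95% interval -0.28 to 0.07, limma adjusted p = 0.798), the lowest of the 10. Jund, the most constitutively expressed Jun gene, read 10.55, 10.94, 10.84 and 10.65 log2 units in Atgl KO/cTg pools, against 10.66, 10.68, 10.38 and 10.54 in wt/cTg pools. Its groups overlapped, and the difference was 0.18 (SE 0.10, limma adjusted p = 0.70). A second Jund probe set, 17502001, gave the same difference of 0.18 (exact permutation p = 0.343) and followed the first over the 8 arrays with a Pearson r of 0.90, given as a description. Junb, which can restrain Jun at some of its targets, was the steadiest member: it read 9.90, 9.83, 9.90 and 9.90 in Atgl KO/cTg pools, against 9.88, 9.77, 9.91 and 9.85 in wt/cTg pools. Its difference was 0.03 (SE 0.06, limma adjusted p = 0.942), and its 95% interval of -0.11 to 0.17 corresponds to 0.93 to 1.12 times the wt/cTg signal.

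Atf3, a stress-induced bZIP protein that pairs with Jun proteins and often represses, varied more between pools than any other member. It read 9.52, 9.32, 8.91 and 8.58 log2 units in Atgl KO/cTg pools, against 8.84, 9.16, 9.01 and 9.04 in wt/cTg pools. Both its highest and its lowest value came from Atgl KO/cTg pools. The means were 9.08 ± 0.42 and 9.01 ± 0.14 (SD, n = 4 each), the difference was 0.07 (SE 0.17, 95% interval -0.31 to 0.45), and the limma adjusted p was 0.954. The SD of Atf3 within genotypes, 0.311, stood at the 90.5th percentile of all genes tested, where the median SD was 0.168. The other 9 members had SDs of 0.0484 to 0.159, at percentiles 0.9 to 45.1, so all of them varied less than the median gene tested. These percentiles rank genes of all signal levels together. Whether the 9 members varied less than genes of a similar signal level was not tested.

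Egr1 is a zinc finger transcription factor induced through serum response factor. It read 11.53, 11.17, 11.24 and 11.22 log2 units in Atgl KO/cTg pools, against 11.25, 11.21, 11.14 and 11.30 in wt/cTg pools. Replicate 1 of Atgl KO/cTg stood above all the others, and the difference was 0.06 (SE 0.08, limma adjusted p = 0.89). Ier2, an immediate early nuclear protein, read 9.68, 9.37, 9.52 and 9.57 in Atgl KO/cTg pools, against 9.60, 9.54, 9.36 and 9.47 in wt/cTg pools. Again Atgl KO/cTg replicate 1 was highest, and the difference was 0.04 (SE 0.09, limma adjusted p = 0.947). Dusp1, the phosphatase that switches off the stress kinases p38 and JNK, read 10.64, 10.43, 10.50 and 10.57 in Atgl KO/cTg pools, against 10.65, 10.34, 10.51 and 10.71 in wt/cTg pools. The wt/cTg values spanned the Atgl KO/cTg values, and the difference was -0.02 (SE 0.09, 95% interval -0.21 to 0.18, limma adjusted p = 0.985). The signs of Atf3, Egr1, Ier2 and Dusp1 turned when single arrays were left out.

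**Figure D2:**
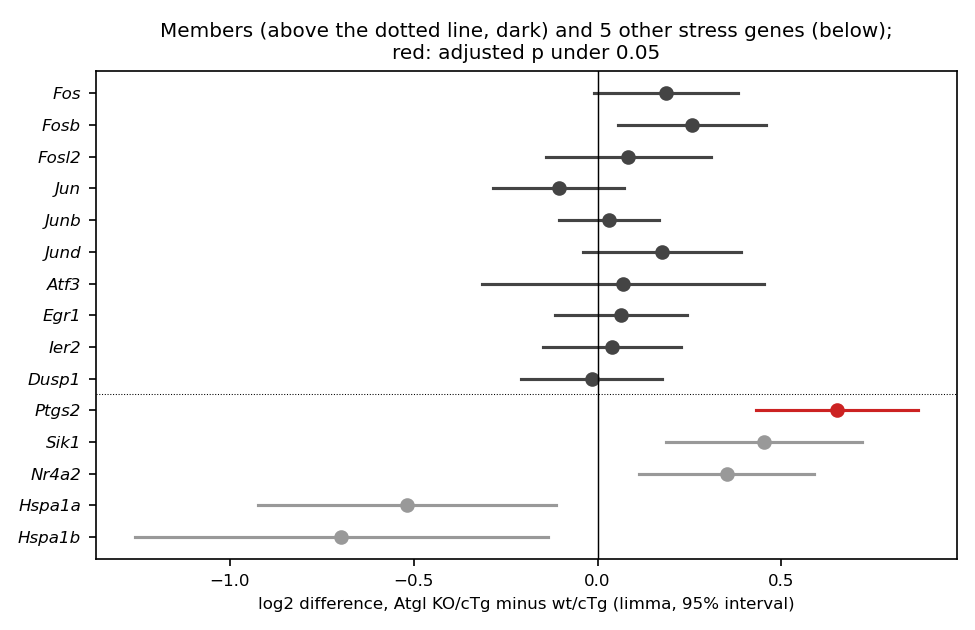
Log2 difference, Atgl KO/cTg minus wt/cTg (horizontal axis), with limma's 95% interval as a line, for the 10 members (above the dotted line) and for Ptgs2, Sik1, Nr4a2, Hspa1a and Hspa1b (below it). The member intervals all lie between -0.31 and 0.46, and of the genes drawn Ptgs2 alone has an adjusted p under 0.05.

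The pools were then read one by one. For each pool an immediate early score was taken as the mean of the 10 members' log2 deviations from their own means over the 8 arrays. The score was 0.113, 0.049, 0.018 and -0.023 in Atgl KO/cTg pools, against 0.029, -0.058, -0.109 and -0.020 in wt/cTg pools. The groups overlapped, and the whole range over 8 pools was 0.221 log2 units. Within each genotype the range was 0.14. No p is given for the score, since its members were chosen as a list.

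The top of the order was Atgl KO/cTg replicate 1, where 8 of 10 members lay above their own mean and Atf3, Egr1 and Ier2 had their highest value. The bottom was wt/cTg replicate 3, where 1 of 10 lay above its own mean and Fosl2, Jund, Egr1 and Ier2 had their lowest value. The lowest place of wt/cTg replicate 3 held after quantile normalization, after median centring and with a gene's probe sets averaged. The top place did not: after median centring wt/cTg replicate 1 scored 0.10 and Atgl KO/cTg replicate 1 scored 0.068.

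The members did not rise and fall as a block from pool to pool. Over 8 arrays, 32 of 45 pairs of members had a positive Pearson r and 13 a negative one, with a median of 0.15. In an exact permutation test 3 pairs had an unadjusted p under 0.05, and 0 passed after Benjamini-Hochberg adjustment over the 45 pairs. Egr1 and Ier2 gave r = 0.76 (permutation p = 0.0123, adjusted p = 0.554; rho = 0.69, permutation p = 0.0694, adjusted p = 0.625). The value was 0.42 once Atgl KO/cTg replicate 1 was left out together with wt/cTg replicate 3, the pools farthest from the Egr1 median. Dropping the farthest pools narrows the range, which can lower r by itself. With each single array left out, r stayed between 0.65 and 0.82. Jun and Dusp1 gave r = 0.76 (permutation p = 0.0285, adjusted p = 0.641; rho = 0.79, permutation p = 0.0279, adjusted p = 0.625), and r was again 0.76 once Atgl KO/cTg replicate 2 was left out together with wt/cTg replicate 1. Fosb and Jun ran in opposite directions, with r = -0.72 (permutation p = 0.0484, adjusted p = 0.706; rho = -0.48, permutation p = 0.243, adjusted p = 0.911) and -0.73 without wt/cTg replicates 1 and 3. With each genotype's mean removed, the 3 values were 0.75, 0.82 and -0.66.

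**Figure D3:**
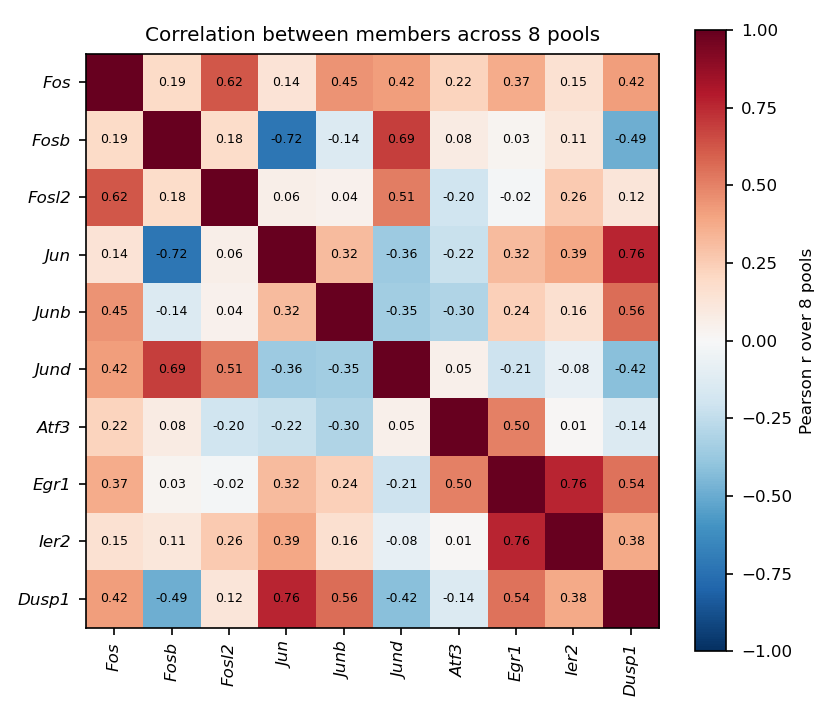
Pearson r over 8 pools for each pair of the 10 members, on a colour scale from -1 (blue) to 1 (red). The highest values, 0.76, belong to Egr1 with Ier2 and Jun with Dusp1, and the lowest, -0.72, to Fosb with Jun.

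By Pearson r over the 8 arrays, the 5 of 13102 other genes most like the score were Trim11 (0.98), Fcor (0.96), Gpr180 (0.94), Ypel5 (0.93) and Fads6 (0.93). The 3 most unlike it were Tuba1b (-0.94), Cd163 (-0.94) and Vps29 (-0.94). No other gene of the lists described here was among these 8. Such extremes are picked from many genes on few arrays and are given as a description, with no p.

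Beyond the members, 39 of 40 other immediate early genes were matched and 38 tested. Of these 38, 22 lay above 0 and 16 below, with a median log2 difference of 0.03. Ptgs2 rose (1 of 38) and none fell, beside 0.0153% higher and 0.0839% lower over all genes tested. At an unadjusted p under 0.05, 4 were higher and 2 lower, beside 3.39% and 4.56% of all genes. Groups did not overlap, with Atgl KO/cTg higher, for Ptgs2, Sik1 and Nr4a2, 3 of 38 beside 1.74% of all genes. The other genes under that unadjusted p were Nr4a1 (0.22), Errfi1 (-0.35) and Ccn2 (-0.26), all 3 named after their values were seen.

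Ptgs2 encodes the inducible cyclooxygenase of prostaglandin synthesis. It read 8.87, 8.74, 8.63 and 8.93 log2 units in Atgl KO/cTg pools, against 8.07, 8.0, 8.34 and 8.17 in wt/cTg pools. Every Atgl KO/cTg pool lay above every wt/cTg pool. The log2 difference was 0.65 with an SE of 0.10. It passed limma's test with an adjusted p of 0.0477, and the exact permutation p was 0.0286. Leaving out any 1 of the 8 arrays ended the call (limma adjusted p 0.0719 to 0.225), while the difference stayed between 0.60 and 0.72.

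Sik1, a salt-inducible kinase and a target of cyclic AMP signalling, read 9.22, 9.56, 9.05 and 9.58 log2 units in Atgl KO/cTg pools, against 9.02, 8.91, 8.93 and 8.74 in wt/cTg pools (log2 difference 0.45, limma adjusted p = 0.388). Nr4a2, an orphan nuclear receptor, read 7.33, 7.26, 7.19 and 7.37 in Atgl KO/cTg pools, against 6.94, 6.83, 7.18 and 6.80 in wt/cTg pools (0.35, limma adjusted p = 0.446). In both genes the lowest Atgl KO/cTg pool lay just above the highest wt/cTg pool.

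**Figure D4:**
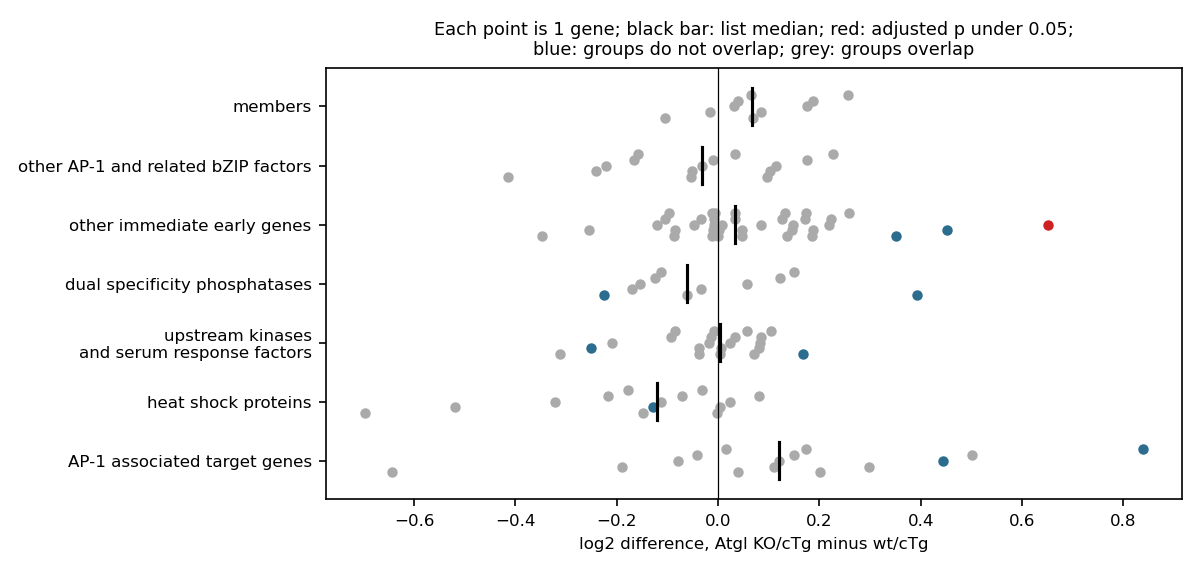
Log2 difference, Atgl KO/cTg minus wt/cTg (horizontal axis), of each tested gene in the members and in 6 related lists, with the list median as a black bar. Vertical offsets separate points only. Ptgs2 at 0.65 is the single gene with an adjusted p under 0.05 (red), and the member median is 0.07.

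The other AP-1 and related bZIP factors lay on both sides of 0. Of 17 listed, 15 were matched and tested, 6 above 0 and 9 below, with a median of -0.03, and none rose or fell. The smallest p belonged to Maf (-0.42, limma adjusted p = 0.564), Atf4, the effector of the integrated stress response (-0.17, 0.60), and Batf, a bZIP factor of lymphocytes (0.23, 0.66). Of 11 other dual specificity phosphatases, 4 lay above 0 and 7 below, with a median of -0.06, and none passed. Dusp4 and Dusp6, which both act on ERK, went opposite ways with groups that did not overlap: Dusp4 at 0.39 and Dusp6 at -0.22 (limma adjusted p = 0.496 and 0.579). That was 1 of 11 higher and 1 of 11 lower, beside 1.74% and 2.62% of all genes. Dusp3 was at -0.17 (0.682).

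In the list of upstream kinases and serum response factors, 23 of 27 were matched and 21 tested, 11 above 0 and 10 below, with a median of 0.00, and none passed. Srf, serum response factor itself, read 8.09, 8.05, 8.03 and 8.10 log2 units in Atgl KO/cTg pools, against 8.02, 7.85, 7.83 and 7.89 in wt/cTg pools. These groups did not overlap, and the log2 difference was 0.17 (limma adjusted p = 0.641). Its coactivator Mrtfa was at -0.25 (0.60) with groups that did not overlap either, and Elk3, an ETS partner of serum response factor, at -0.31 (0.531). Groups without overlap were thus 1 of 21 higher and 1 of 21 lower, beside 1.74% and 2.62% of all genes. In the list of AP-1 associated target genes, 18 of 20 were matched and 15 tested, 11 above 0 and 4 below, with a median of 0.12. None passed. By limma's unadjusted p under 0.05, 4 were higher and 1 lower, beside 3.39% and 4.56% of all genes. Mmp12, a macrophage metalloproteinase, was at 0.84 (limma adjusted p = 0.271), Plaur, the urokinase receptor, at 0.44 (0.314) and Mmp3, stromelysin, at -0.64 (0.524). The Mmp12 and Plaur groups did not overlap, with Atgl KO/cTg higher, 2 of 15 beside 1.74% of all genes. Without wt/cTg replicate 1, Mmp12 passed (1.02, limma adjusted p = 0.0389).

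Heat shock proteins, another set that handling and temperature can induce, lay mostly on the other side. Of 18 listed, 15 were matched and 14 tested, 3 above 0 and 11 below, with a median of -0.12, and none passed. By limma's unadjusted p under 0.05, 0 were higher and 3 lower, beside 3.39% and 4.56% of all genes. Hspa1b read 6.93, 7.34, 8.30 and 7.50 log2 units in Atgl KO/cTg pools, against 8.40, 7.85, 8.03 and 8.57 in wt/cTg pools. Hspa1a read 6.59, 6.32, 6.85 and 6.86 in Atgl KO/cTg pools, against 7.41, 6.95, 6.78 and 7.55 in wt/cTg pools. The groups overlapped for both genes, with log2 differences of -0.70 and -0.52 (limma adjusted p = 0.524 for each). These 2 genes encode nearly identical inducible Hsp70 proteins, so their probe sets may share signal. Hspb1, a small heat shock protein, was at -0.22 (0.524), and the groups of Hsp90aa1 (-0.13, limma adjusted p = 0.754, named after its values were seen) did not overlap. That was 1 of 14 with Atgl KO/cTg lower, beside 2.62% of all genes.

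Across pools the heat shock list did not follow the score. Its mean deviation was -0.17, -0.11, 0.00 and -0.04 in Atgl KO/cTg pools, against 0.09, -0.02, 0.09 and 0.18 in wt/cTg pools. The pool with the highest immediate early score, Atgl KO/cTg replicate 1, had the lowest heat shock mean, and the pool with the lowest score, wt/cTg replicate 3, had a heat shock mean above 0. The other immediate early genes gave 0.00, 0.06, -0.02 and 0.09 in Atgl KO/cTg pools, against 0.07, -0.09, -0.06 and -0.05 in wt/cTg pools.

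**Figure D5:**
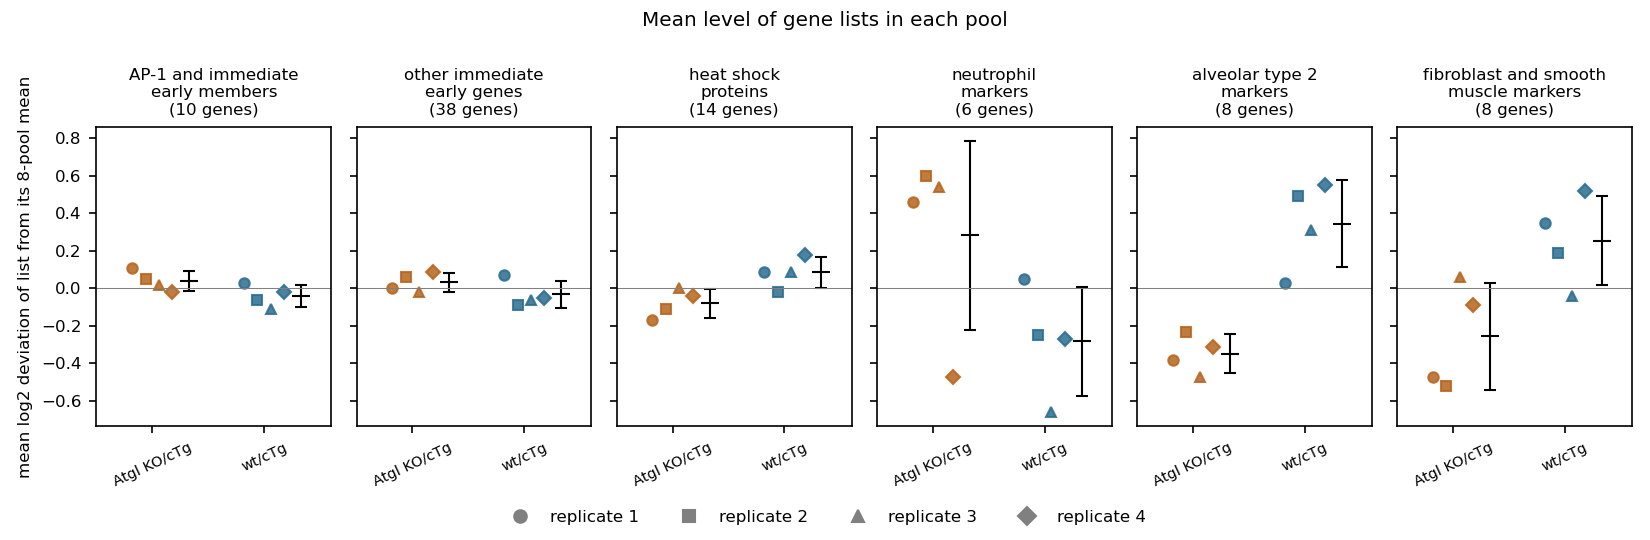
Mean log2 deviation of a list's tested genes from their means over 8 pools (vertical axis, shared by all panels), in 4 Atgl KO/cTg pools (left, brown) and 4 wt/cTg pools (right, blue), with marker shape for the replicate number and black bars for mean and SD. The mean of the members spans 0.22 log2 units and that of other immediate early genes 0.18. The mean of neutrophil markers spans 1.26 and that of alveolar type 2 markers 1.02.

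As list means, markers of other cell types spanned more over the pools than the members did. The ranges ran from 0.28 log2 units for macrophage markers to 1.26 for neutrophil markers, beside 0.22 for the members. A narrow span was not particular to the members. Club cell markers spanned 0.16, and the related lists from 0.18 (other immediate early genes) to 0.41 (AP-1 associated target genes). Averaging members that did not vary together narrows the range of their mean, and Atf3 alone spanned 0.93. The tested genes of the neutrophil list, 6 of 6 above 0, had mean levels of 7.72 to 8.80 log2 units in Atgl KO/cTg pools, against 7.53 to 8.24 in wt/cTg pools. The alveolar type 2 list, 8 of 8 below 0, had 10.22 to 10.46 in Atgl KO/cTg pools, against 10.72 to 11.24 in wt/cTg pools. The fibroblast and smooth muscle list, 8 of 8 below 0, had 8.0 to 8.58 in Atgl KO/cTg pools, against 8.48 to 9.03 in wt/cTg pools. Below 0 also lay 4 of 6 endothelial genes (median -0.33), with Pecam1 at -0.27, and 5 of 6 lymphocyte genes (median -0.05), although Ighm was at 0.46. Above 0 lay 5 of 5 ciliated cell genes (median 0.33), and macrophage genes were split, 2 above and 4 below (median -0.03). In these marker lists 4 of 8 alveolar type 2 genes fell, beside 0.0839% of all genes tested. No other gene passed limma's test, S100a8 of neutrophils (0.49, adjusted p = 0.535) and Col1a2 of fibroblasts (-0.36, 0.66) included. Without Atgl KO/cTg replicate 4, S100a8 passed (0.73, limma adjusted p = 0.0315). The calls of Sftpc and Lamp3 held when Atgl KO/cTg replicate 2 was left out, held when wt/cTg replicate 1 was left out, and were lost when any other single array was left out (limma adjusted p up to 0.211 for each). The part of these cells in the values of the members, of Ptgs2 or of the heat shock genes was not tested. Club cell markers were high in both genotypes (list means of 11.56 to 11.72 in Atgl KO/cTg and 11.57 to 11.68 in wt/cTg), with Scgb1a1, the main club cell secretory protein, at 12.92 ± 0.10 and 12.99 ± 0.08 (SD, n = 4 each). The arrays also carried strong signal of other cells, such as Sftpc of alveolar type 2 cells (12.53 and 12.93), so the members' signal cannot be assigned to club cells alone.

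With the immediate early score added to the model as a covariate, and the members themselves left out, limma called 2 of 13102 genes between the genotypes, beside 13 of 13112 without it. The 2 were Pnpla2, lower, and Wfdc21, higher and named after its values were seen. The log2 difference of Ptgs2 was 0.71 with the score (limma adjusted p = 0.261) and 0.65 without it, and that of Lamp3, a lamellar body protein of alveolar type 2 cells, was -1.39 (0.261) and -1.53. Both differences kept their sign while both calls were lost. The score itself averaged 0.04 in Atgl KO/cTg pools and -0.04 in wt/cTg pools (SD 0.06 each), so it overlapped with genotype in the model. Such overlap widens the error of the genotype difference, and a further covariate leaves fewer degrees of freedom. Their part in the lost calls was not tested. With age as the covariate the count was 7.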

How the data were processed

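Per the labels' protocols, each pool's RNA came from a column kit (miRNeasy Micro) with DNase digestion, and 50 ng of it was amplified by NuGEN's Ovation Pico WTA chemistry before biotin labelling. What the authors deposited is a table of log2 signal with a value for each probe set on each array (1.85 to 13.54, array medians 5.12 to 5.24). That scale was inferred from the range of the numbers, while the normalization behind them was not given in the sources used here. Without scanner files, neither background nor scan batches could be tested, and the number of arrays limits the precision. Correlations between arrays ran from 0.965 to 0.985, and 0 pairs were identical.

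Of 41345 probe sets, 23521 had 1 gene symbol, 1814 several and 16010 none in the platform annotation. A gene was tested if its mean exceeded 5.18, the median over probe sets. The genotype comparison used limma 3.58.1 under R 4.3.3 (eBayes with a variance trend on the lmFit result), two-sided, with Benjamini-Hochberg adjustment over 13112 genes. Single genes also had an exact two-sided permutation test over 70 arrangements. Correlations used all orders of the arrays. The design text speaks of 4 sets that each hold both genotypes, but the labels do not say which pools form a set, so no pairing entered the fit. Replicate numbers follow sample order only. Figures were drawn with matplotlib 3.10.9.

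On simulated data with 200 of 13112 genes changed, this fit recovered 44.2% of genes changed by 0.5 log2 units and 89% of those changed by 1, with 5.2% false among those called. Far fewer genes passed here, so these shares can be too high. No change below 0.5 was simulated, while the member differences lay between -0.11 and 0.26. How often the fit recovers changes of that size was not tested.

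The members and lists were chosen with earlier results of these data known. The genes named were the members, Pnpla2, the genes of each related list that passed or had the 3 smallest p, the 5 genes most like and 3 most unlike the score, and a few cell type markers. Alternatives covered the level filter, variance trend, normalization, array weights, probe set choice, age, mouse numbers and each array left out.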

Additional observations from a re-analysis of the deposited data

Results flagged for a closer look

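Each genotype's 4 values of a named gene, of the score and of a list mean were checked for a single pool far from the other 3 (Dixon's test), and 11 of 126 groups were picked out, where chance gives about 5%. Among the members, Fosb was 7.76 in Atgl KO/cTg replicate 1, with the next pool at 7.88, and Junb was 9.83 in Atgl KO/cTg replicate 2, with the other 3 at 9.90. Atgl KO/cTg replicate 1 also had Mrtfa at 6.57 (next 6.85) and the other AP-1 and related bZIP factors at a mean of 7.41 (next 7.60). Atgl KO/cTg replicate 4 had S100a8, a neutrophil calprotectin gene, at 9.98 (next 10.91) and the neutrophil markers at a mean of 7.72 (next 8.66).

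In wt/cTg, replicate 1 had Scgb1a1 at 12.88 (next 13.02) and the AP-1 associated target genes at a mean of 8.33 (next 8.01). Replicate 2 had the other AP-1 and related bZIP factors at 7.51 (next 7.64), replicate 3 had Col1a2, a collagen gene of fibroblasts, at 10.12 (next 10.50), and replicate 4 had Ccn2 at 8.71 (next 8.49).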

How the results depend on the processing

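In all 18 alternatives 0 members were called, and 167 of 180 single member differences kept their sign. Fos, Fosb, Fosl2, Jun, Junb and Jund kept it throughout. Atf3 was at -0.00868 and Dusp1 at 0.00537 with array weights, Ier2 at -0.00839 with runs of close mouse numbers as a block, and Atf3 at -0.00242 and Dusp1 at 0.0707 without the 2 arrays at opposite ends of the main principal axis (Atgl KO/cTg replicate 2, wt/cTg replicate 4), an alternative chosen after seeing the data. With each array left out in turn, Atf3 ran from -0.0751 to 0.236, Egr1 from -0.0163 to 0.105, Ier2 from -0.00884 to 0.096 and Dusp1 from -0.087 to 0.0362. The median member difference ran from 0.00817 (without Atgl KO/cTg replicate 1, with 5 members above 0) to 0.101 (without Atgl KO/cTg replicate 3). By exact permutation 0 members had p under 0.05, and 1 (Fosb) did after quantile normalization, also chosen after seeing the data. The count of genes called over all genes, 13, was 7 without a level filter and with age, 1 without the variance trend and after quantile normalization, 23 with array weights, 3 with the mouse number block, 8 without those 2 end arrays, and 1 to 25 with each array left out. With the immediate early score as a covariate it was 2, and 1 to 7 with each array left out. The cause was not tested. Of 678 values of other named genes, none turned sign and 35 lost a call: Ptgs2 in 15 of 18 alternatives, Sftpc in 11 and Lamp3 in 9. Gained calls were S100a8 without Atgl KO/cTg replicate 4 and Mmp12 without wt/cTg replicate 1. Beyond the mouse number block the pools could not be paired, because the labels do not say which pools form a set.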

Other observations

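The titles give mouse numbers, and 3 runs of close numbers, 1 of them with a gap, hold both genotypes. The labels do not say what a run shares. Within these runs the Atgl KO/cTg minus wt/cTg log2 differences were 0.32, 0.10 and 0.31 for Fosb, 0.07, 0.34 and 0.04 for Fos and 0.08, 0.16 and 0.11 for Jund, higher in Atgl KO/cTg in 3 of 3 runs for each. Fosl2, Junb and Egr1 were higher in 2 of 3 runs, and Jun, Atf3, Ier2 and Dusp1 in 1 of 3. The immediate early score differed by 0.05, 0.08 and 0.00. Atf3 differed by 0.58, -0.25 and -0.46, and Hspa1b by -1.27, 0.45 and -1.07. Ptgs2 differed by 0.74, 0.64 and 0.76.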
